A study of Homo sapiens with 14 samples.

Results

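The 40S ribosomal protein mRNAs were taken as the 28 genes of the small ribosomal subunit named RPSA, RPS2 to RPS29 and FAU whose GENCODE gene name appeared in the transcript profiles of K562 cells, a human erythroid and myeloid leukemia line. All 28 were present in the 4 profiles, with 246 of the 20512 transcripts that held a value in any profile. The choice used gene names only and no measured value. For each gene the transcript of highest mean RPKM (reads scaled to transcript length and library size) gave the level. That transcript was annotated as protein coding in 23 genes, as retained intron in 3 (RPS23, RPS27 and RPS28) and as a target of nonsense-mediated decay in 2 (RPS3 and RPS25). Scores by mRNA region came from the complete coding transcript of highest mean RPKM, which could be laid out on the genome for 27 of the 28 genes and for 3838 genes in all, so that 3811 other coding genes served as the comparison. RPS27 had no such transcript and enters the RPKM only.

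K562 cells, or RNA taken from them and refolded, were probed with a pair of reagents. NAI-N3 (icSHAPE) acylates the 2′-hydroxyl of flexible nucleotides, and NAz-N3 activated with UV light (icLASER) modifies the C8 position of purines that are exposed to solvent. NAI-N3 was given at 100 mM for 5 minutes, and DMSO for 5 minutes. NAz-N3 came from a 1 M stock, with 10 minutes of UV light except in the controls without UV. Samples treated in cells are called in vivo and refolded RNA in vitro, with 3 libraries for icSHAPE in vivo and 2 for each of icSHAPE in vitro, icLASER in vivo and icLASER in vitro, beside 3 DMSO controls for icSHAPE and 2 controls without UV for icLASER. The deposited files pool these 14 libraries into 4 profiles, and both conditions of a reagent share a control group, so no value below has a spread between libraries, a standard deviation or a test. A score runs from 0 to 1 per nucleotide and is scaled within a transcript, with the first 6 nucleotides unscored. A stretch at the 3′ end was unscored too, so that 87.8% to 97.7% of the nucleotides of a member's transcript held a score. The number of reads behind a score is unknown. Pairs of values below give in vitro first and in vivo second unless stated otherwise.

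The 40S subunit binds the mRNA, scans it for the start codon and holds the decoding centre, and its proteins line the entry and exit of the mRNA path in the head, body and platform of the subunit. Ribosomal protein mRNAs are short, very abundant and mostly of the TOP class: they begin with a C at the cap followed by a run of pyrimidines (the 5′ terminal oligopyrimidine tract), through which their translation is tied to mTOR signalling and the cap-adjacent binding of LARP1. In growing cells they are translated heavily, each by few ribosomes because the coding sequences are short.

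The TOP tracts are shown for 4 members because scores at and just upstream of the canonical start are read below. The upstream nucleotides are not printed here. In GENCODE 44 the canonical transcript began with C and at least 4 further pyrimidines in 23 of the 28 members, in which the opening run was 6 to 14 nucleotides long with a median of 9. The same was true of 313 of 3811 other coding genes, or 8.21%. The 5 members without such a start were RPS4X, RPS7, RPS15, RPS26 and RPS28. The first 24 nucleotides (GRCh38) follow, with the tract in capitals, for RPS12 (chr6:132814569-132814592, plus strand), RPS18 (chr6:33272075-33272098, plus strand), RPSA (chr3:39406720-39406743, plus strand) and RPS25 (chr11:119018320-119018343, minus strand), all in the 5′ UTR.
RPS12: CUCUUUCCCUgccgccgccgaguc
RPS18: CUCUCUUCCacaggaggccuacac
RPSA: CUUUUCCgugcuaccugcagaggg
RPS25: CUUUUUguccgacaucuugacgag

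The label K562 was checked against 13 genes known from this line, of which 12 were listed, from LMO2 at a mean RPKM of 10.0 to the fetal globin gene HBG1 at 1936, and TAL1 was not. Of 8 markers of other cell types only EPCAM was listed, at 23.8. The mean score over coding genes was 0.146 and 0.175 for icSHAPE, and 0.158 and 0.154 for icLASER, so the icSHAPE scale itself was higher in vivo. Reads can also be shared with processed pseudogenes: 241 pseudogenes named after 27 of the members held 247 transcripts in the profiles, and how the authors' counting divided shared reads is not given in the sources used here.

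The members had RPKM among the highest of the profiles. Per the study's methods the libraries were enriched for polyadenylated RNA, and probe-modified RNA was captured through biotin. An RPKM, called level here, can thus hold both the amount of an mRNA and its capture. The part of capture in the RPKM and its ratios was not tested. Their median RPKM was 498 and 522 in the icSHAPE pair and 334 and 466 in the icLASER pair, against 16.1, 13.7, 13.1 and 13.3 in the other coding genes. Even the lowest member stood above 90.7% of the other coding genes in every profile. The 47 mRNAs of 60S ribosomal proteins had medians of 479, 509, 319 and 560.

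RPS12, a protein of the head, had the highest level, with 2632 and 3038 RPKM by icSHAPE and 1500 and 2384 by icLASER. RPS29, a small zinc-binding protein of the head, followed with 2143, 2304, 1059 and 1733. RPS18, also of the head, had 1806, 1977, 875 and 1297. RPS21 of the body and platform had 1548, 1587, 957 and 1635, and it exceeded RPS18 in both icLASER profiles while RPS18 exceeded it in both icSHAPE profiles.

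At the other end was RPS26, which sits at the mRNA exit and contacts the mRNA upstream of the start codon, with 83.3, 94.1, 78.7 and 81.4. FAU, made as a fusion of a ubiquitin-like domain and a ribosomal protein, came next with 171, 155, 161 and 282. RPS15, whose tail reaches towards the decoding site, had 186, 204, 187 and 303. The remaining 21 members had mean RPKM between 232 (RPS9, at the mRNA entry) and 959 (RPS19, mutated in Diamond-Blackfan anemia). Some transcripts are short isoforms, so a level refers to the named transcript and not to the whole gene.

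Between conditions the 2 reagents gave different pictures of the level. For icSHAPE the ratio of in vivo to in vitro RPKM had a median of 1.06 in the members and 1.07 in the other coding genes. None of the 28 members was 2-fold higher and none 2-fold lower, against 0.128% and 0.853% of the other coding genes. RPS14, haploinsufficient in a form of myelodysplastic syndrome, had the lowest ratio at 0.524, from 528 to 277 RPKM. For icLASER the median ratio was 1.59 against 1.05, with quartiles of 0.911 and 1.25 in the other coding genes. All 28 members were above 1, from RPS26 at 1.04 to RPS27, a zinc-finger protein of the subunit, at 2.09. RPS27 went from 495 to 1034 RPKM and RPS28, at the mRNA exit, from 542 to 1094, a ratio of 2.02. These 2 of 28 members were at least 2-fold higher, against 0.35% of the other coding genes, and none was 2-fold lower against 0.63%.

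The icLASER ratio was tied to transcript length over all genes. Spearman's rho between length and ratio was -0.610 over the 28 members and -0.525 over 2855 other coding genes, which share the same libraries. Other coding genes no longer than the median member had a median ratio of 1.34. The 60S ribosomal protein mRNAs had 1.61, other TOP mRNAs 1.56 and glycolytic enzyme mRNAs 0.908. The part of length in the members' ratio was not tested.

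The members were short in every region. The median transcript had 623 nucleotides against 1920 in the other coding genes, with a 5′ UTR of 65 against 144, a coding sequence of 441 against 906 and a 3′ UTR of 59 against 578, while the median GC content was 49.7% against 49.6%. Because of the short UTRs, 24 members had at least 20 scored nucleotides in the 5′ UTR and 19 in the 3′ UTR. A further comparison group of like length and level was therefore used: the 133 other coding genes of at most 1599 nucleotides, the longest member, and with mean RPKM of at least 84.4, the lowest member, leaving out the 60S ribosomal protein mRNAs. Members also had fewer scores of 0. Their median share of scored nucleotides at 0 was 31.4% and 23.0% for icSHAPE and 27.3% and 16.8% for icLASER. In the other coding genes it was 61.9% and 42.0% for icSHAPE and 45.8% and 49.0% for icLASER. How this bears on the mean scores was not tested.

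In vivo minus in vitro scores went from negative to positive along the member mRNAs in icLASER. The median difference was -0.0724 in the 5′ UTR, 0.0313 in the coding sequence and 0.107 in the 3′ UTR of the members, against -0.0563, -0.00924 and 0.0511 in the other coding genes. The 5′ UTR lay below the coding sequence in 24 of 24 members and in 74.7% of the other coding genes. The coding sequence lay below the 3′ UTR in 15 of 19 members against 86.8%.

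In the 5′ UTR a difference of at least 0.05 was called. In icLASER 14 of 24 members were lower in vivo against 53.5% of the other coding genes and none was higher against 7.31%, so the share of members was close to the background. With the median over nucleotides in place of the mean, 4 were lower. Under alternative settings, here and below, only members were counted as higher or lower, except from the canonical start on. RPS3A, at the mRNA exit, had mean scores of 0.473 and 0.135, a difference of -0.338. RPS2, at the mRNA entry, had 0.476 and 0.195, and RPS18 had 0.331 and 0.118. The 5′ UTRs of RPS3A, RPS2 and RPS18 had 80, 57 and 110 nucleotides, of which 55, 34 and 65 lay before the canonical start. The members at the other end were RPS28 with 0.167 and 0.188, RPS29 with 0.285 and 0.287, and RPS23, a protein of the decoding centre, with 0.292 and 0.274.

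For icSHAPE the 5′ UTR difference had a median of -0.0173 against 0.0189, with 3 of 24 members higher against 28.9% and 6 lower against 15.5%. The count of lower members was 15 when each profile was divided by its mean score, 10 with the mean of each trinucleotide taken out and 1 of 18 when counted from the canonical start, where the median was 0.00680. The lowest was RPS14, with 0.797 in vitro and 0.224 in vivo. The transcript of RPS14 was placed by scores, with a change of -160 nucleotides at its annotated 5′ end and -555 at its 3′ end. The regions and window positions given for RPS14 rest on that placement. Its icLASER score over the same 5′ UTR was 0.879 and 0.770. RPS15 had 0.465 and 0.254, and RPS7, known for binding MDM2, had 0.292 and 0.179. Higher in vivo were RPS27A, made as a fusion with ubiquitin, with 0.175 and 0.274, RPS10, a target of ribosome-associated ubiquitination, with 0.0643 and 0.153, and RPS18 with 0.249 and 0.305. RPS18 and RPS27A were thus higher by icSHAPE and lower by icLASER over the same nucleotides, since RPS27A had icLASER scores of 0.302 and 0.111.

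In the coding sequence the icLASER medians of the members and of the other coding genes had opposite signs. The member median score was 0.134 in vitro, above 9.60% of the other coding genes, and 0.172 in vivo, above 55.7% of them, while the other coding genes had medians of 0.177 and 0.166. The order in vivo turned against the group of like length and level, where the members minus that group gave -0.0260, and the order in vitro turned with the median over nucleotides, at 0.001. The difference was above 0 in 25 of 27 members, and its quartiles in the other coding genes were -0.0330 and 0.0124. Of the members 8 were at least 0.05 higher against 6.45% of the other coding genes, with none at least 0.05 lower against 14.2%. With the median over nucleotides 1 was higher. In the group of like length and level the median was 0.0153 and 11.4% were higher.

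RPS18 had the highest coding sequence difference, with icLASER scores of 0.0895 in vitro and 0.194 in vivo. RPS25, known for its part in initiation at viral internal ribosome entry sites, had 0.119 and 0.206, and RPS28 had 0.0954 and 0.177. The lowest were RPS24, mutated in Diamond-Blackfan anemia, with 0.177 and 0.165, RPS3, at the mRNA entry, with 0.172 and 0.162, and RPS23 with 0.108 and 0.116. Grouped by place in the subunit, the 12 members of the head had a median difference of 0.0459 with 6 called higher, and the 15 of the body and platform 0.0235 with 2 called higher. The 60S ribosomal protein mRNAs had a median of 0.0571 with 28 of 47 called higher, so such values were not particular to the small subunit.

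By base, the distance between the members and the other coding genes in the coding sequence was largest at G. NAz-N3 modifies the purines G and A, and whether this bears on the distance was not tested. The median icLASER difference at G was 0.0340 in the members and -0.0389 in the other coding genes, and at A it was 0.0249 against -0.0140. At C the values were 0.0332 against 0.0163 and at U 0.0393 against 0.00438. Members were above 0 at G in 22 of 27 against 24% of the other coding genes, at A in 22 against 35.4%, at C in 27 against 75.1% and at U in 26 against 56.1%.

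For icSHAPE the coding sequence difference was smaller in the members than in the other coding genes, with a median of 0.00777 against 0.0341, and the members' median became -0.0220 when each profile was divided by its mean score. Of 27 members 2 were at least 0.05 higher against 28.9% and none was lower against 1.38%. The group of like length and level had 0.0159 with 12.1% higher. Spearman's rho between mean RPKM and this difference was -0.404 over 2315 other coding genes and -0.0153 over the 27 members. RPS14 had the highest difference, with 0.0701 in vitro and 0.128 in vivo, followed by FAU with 0.134 and 0.189 and RPS15 with 0.122 and 0.165. RPS28 had the lowest, with 0.310 and 0.264, then RPS4X, encoded on the X chromosome, with 0.165 and 0.123, and RPS10 with 0.159 and 0.125.

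Within the coding sequence the icLASER difference was higher towards the 3′ end. With each coding sequence cut into 10 equal parts, the median over the members was -0.0260 in the first, 0.0264 in the fifth and 0.122 in the last, against -0.0505, -0.0133 and 0.0366 in the other coding genes. The last 3 parts exceeded the first 3 in 27 of 27 members, by a median of 0.108 and by 0.0155 to 0.203, against 86.2% and a median of 0.0694 in the other coding genes and 84.1% and 0.0793 in the group of like length and level. For icSHAPE it was 17 of 27 members, or 63%, with a median of 0.0193, against 48.5% and -0.00158 in the other coding genes and 66.7% and 0.0257 in the group of like length and level.

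The icLASER difference was large around the stop codon, and similar values lay beside it. The last of the 10 parts of the coding sequence had a median of 0.122 and the 3′ UTR 0.107. Over the 27 nucleotides on each side, 3 nucleotides away, the members had mean icLASER scores of 0.0988 and 0.225. The other coding genes had 0.121 and 0.159. These stretches share nucleotides with the window that follows. Whether the rise was particular to the stop codon was not tested. Over the 36 nucleotides from 30 before the first base of the stop codon to 5 after it, the members had median scores of 0.0990 and 0.253, and the median difference was 0.130 against 0.0371 in the other coding genes. Of 26 members 20 were at least 0.05 higher against 42.9% and 1, RPS23, lower against 11.3%. RPS13, a protein of the body and platform, had the largest difference, from 0.0456 to 0.390. RPS12 went from 0.0616 to 0.325 and RPS3A from 0.0759 to 0.322. The 3′ UTRs of RPS13 and RPS12 had 19 and 22 nucleotides, and the stop codon itself lay in the unscored 3′ end. The values of RPS13 and RPS12 thus rest on nucleotides before the stop codon. Below 0 were RPS23 with 0.222 and 0.153, RPS29 with 0.293 and 0.256 and RPS7 with 0.103 and 0.0844.

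The icSHAPE score over the same nucleotides had a median difference of 0.0188, below the 0.0509 of the other coding genes, with 6 members higher against 50.8% and 2 lower against 7.4%. RPS4X was opposite by reagent, with icSHAPE 0.231 and 0.105 and icLASER 0.263 and 0.420. The 60S ribosomal protein mRNAs had like icLASER values, with a median of 0.138 and 42 of 46 higher. At the start codon, from 15 before the A of the AUG to 14 after it, the icLASER difference of the members had a median of -0.0286, with 2 of 26 higher against 13.2% and 8 lower against 46.2%. For icSHAPE there it was -0.00688, with 3 higher against 36.6% and 5 lower against 18.2%.

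In the 3′ UTR both reagents gave higher scores in vivo. The unscored stretch at the 3′ end is left out. The whole 3′ UTRs of RPS15A, RPS10 and FAU had 53, 52 and 50 nucleotides, so their values rest on few. For icLASER 14 of 19 members were at least 0.05 higher against 50.8% and none lower against 1.44%, and the group of like length and level had a median of 0.0709 with 65.8% higher. RPS15A, a protein of the body and platform, had 0.141 in vitro and 0.439 in vivo, RPS10 had 0.0498 and 0.329, and RPSA, also known as the laminin receptor precursor, had 0.0940 and 0.330. RPS7 was the only member below 0, with 0.0810 and 0.0749. For icSHAPE 8 of 19 were higher against 24.6% and none lower against 2.2%, with a median of 0.0449 against 0.0279. FAU had 0.0474 and 0.264 and RPS4X 0.0419 and 0.1504, while RPS29 alone was below 0, with 0.112 and 0.0891. The in vitro icSHAPE score of the members in this region had a median of 0.0521, against 0.112 in the other coding genes, and this order turned with the median over nucleotides, where members minus other coding genes was 0.006. That median also called 1 member higher by icSHAPE.

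At the 5′ end the profiles were first read over nucleotides 7 to 30 of each transcript. For icSHAPE the median difference was 0, with 6 of 25 members higher against 36.5% and 6 lower against 27%. For icLASER it was -0.106 against -0.0742, with none of 26 higher against 16.1% and 18 lower against 56.6%. RPS14 had the lowest icSHAPE value, with 0.871 in vitro and 0.264 in vivo, and FAU the highest, with 0.191 and 0.423. RPS26 had the lowest icLASER value, with 0.825 and 0.276, and RPS9 the highest, with 0 and 0.0417.

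These first nucleotides often lay upstream of the TOP start, since many transcripts in the profiles begin before the canonical one. In 18 members the canonical start lay at least 6 nucleotides inside a placed transcript, which was also the case in 2606 other coding genes. The coding transcript of highest mean RPKM that held the start was used. It was not the transcript used for regions in RPS3, RPS6, RPS13, RPS19, RPS23, RPS24, RPS27A and FAU. Here the scores just upstream of the canonical start were high in vitro and low in vivo. An RNA that begins at the canonical start does not hold these nucleotides, and how many reads lie behind their scores is unknown. The members' median at 3 nucleotides before the start was 1 in vitro and 0 in vivo with each reagent, the ends of the scale. How the end of the RNA or few reads bear on these scores was not tested. At 3 nucleotides before the start the members had mean icSHAPE scores of 0.971 and 0.228, and a score of at least 0.5 was reached in 17 and 5 of the 18, against 80% and 37% of the other coding genes. The icLASER means were 0.926 and 0.187, with 17 and 3 of 18 reaching 0.5 against 57% and 32.9%. For icSHAPE that score was reached in 86.1% and 19.4% of the 60S ribosomal protein mRNAs and in 93.3% and 26.7% of the other TOP mRNAs.

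This position was lower in vivo in 16 of 18 members with each reagent, against 63.6% of the other coding genes for icSHAPE and 48.8% for icLASER. Of the other coding genes 9.14% and 15.6% were higher, and the rest were unchanged. Their lower quartile by icLASER was 0 in vitro, and a score of 0 cannot fall. For icSHAPE RPS26 was higher, with 0.478 and 1, and RPS15 was at 1 in both conditions. For icLASER RPS12 and RPS15 were at 1 in both. The other coding genes had means of 0.801 and 0.393 for icSHAPE and 0.574 and 0.343 for icLASER. Over the 6 nucleotides before the start all 18 members were lower in vivo by icSHAPE against 67.3% of the other coding genes, with a median of -0.440 against -0.112. By icLASER 17 of 18 were lower against 72.6%, with -0.509 against -0.1495. The 60S ribosomal protein mRNAs had medians of -0.307 and -0.387 for icSHAPE and icLASER, with 31 and 33 of 36 lower, and the other TOP mRNAs -0.496 and -0.466, with 11 and 15 of 15 lower, so the drop was not particular to the small subunit.

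RPS2 shows the pattern at a start with a tract of 10 pyrimidines: over the 6 nucleotides before it icSHAPE gave 0.905 and 0.1397, and icLASER 1 and 0.378. RPSA had 0.852 and 0.163 by icSHAPE and 1 and 0.496 by icLASER. RPS18 was split by reagent, with 0.746 and 0.640 by icSHAPE and 0.806 and 0.00933 by icLASER. RPS15 changed least, with 0.756 and 0.732 by icSHAPE and 1 in both conditions by icLASER, over the 4 of these nucleotides that were scored. It has no TOP tract in the annotation, and neither do RPS4X, with 0.773 and 0.0768 by icSHAPE and 0.719 and 0.0918 by icLASER, and RPS26, with 0.610 and 0.336 and with 0.682 and 0.0553.

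Inside the TOP tract the reagents differed. In the 15 members with a scored tract the icSHAPE median was 0.227 and 0.319, and the difference was above 0 in 12 and below in 3, with a median of 0.0950. In the other coding genes with such a start it was 0.0261, with 58.9% above 0 and 41.1% below, and in the 60S ribosomal protein mRNAs 0.0581, with 20 of 27 above 0. The other TOP mRNAs went the other way, with a median of -0.0227, 4 of 14 above 0 and 10 below. RPS25 had 0.0917 and 0.358, RPS2 had 0.341 and 0.601, and RPS6, the target of S6 kinase, had 0.374 and 0.613. RPS18, RPS3 and RPS3A were lower, RPS18 with 0.534 and 0.455. The icLASER difference in the tract had a median of -0.0149, with 7 above 0 against 41.2% of the other coding genes and 8 below against 57.8%, whose median was also -0.0149. The other TOP mRNAs had -0.0978, with 2 of 14 above 0 and 12 below. The tract holds only pyrimidines, and NAz-N3 acts on purines.

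Counted from the canonical start on, the 5′ UTR of these 18 members had a median icLASER difference of -0.0163, against -0.0445 in the other coding genes, with 3 called higher against 11.1% and 6 lower against 47.3%. The icSHAPE median was 0.00680 against 0.00443, with 4 higher against 25% and 1 lower against 20.6%. Over the whole 5′ UTR of the transcripts used for regions the icLASER median of the 24 members was -0.0724, as given above. The sets of members and some of their transcripts differ between these values.

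The strongest local changes are shown as windows of 25 nucleotides, chosen by their value and so given with no test, with every nucleotide that changed by at least 0.3 in capitals. The coordinates are GRCh38, on the strand of the gene. For icSHAPE the lowest window of all members lay in the 5′ UTR of RPS14 (chr5:150449494-150449518, minus strand), with a mean of 0.801 in vitro and 0.175 in vivo, 24 of 25 nucleotides lower and 23 changed by at least 0.3. The lowest within a coding sequence lay in RPSA (chr3:39411683-39411707, plus strand), with 0.519 and 0.142, followed by RPS4X (chrX:72275646-72275670, minus strand), with 0.497 and 0.137.
RPS14: UUUUGcUUUCAGGGAgGAGCUUGUG
RPSA: uGGCucgggaAgUUcugCGcAUGCG
RPS4X: AuUUUccugaggAAcaGAcUUAAGU

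These windows were low in vivo by icSHAPE alone in RPSA, whose icLASER difference there was 0.0480, and by both reagents in RPS14, where it was -0.165. In RPS4X it was -0.0740. The highest icSHAPE windows lay in 3′ UTRs. RPS14 (chr5:150443998-150444022, minus strand) had 0.0939 in vitro and 0.486 in vivo, and RPS4X (chrX:72272299-72272323, minus strand) 0.120 and 0.467. Their icLASER differences were -0.0410 and 0.0687.
RPS14: UuCUAAauauggaccAAUuCuUAaA
RPS4X: CUuuCUaaaaAucugcccuCAUuUU

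For icLASER the lowest windows lay upstream of or at the canonical starts, in RPS18 with 0.806 in vitro and 0.167 in vivo and in RPS3A (chr4:151099595-151099619, plus strand) with 0.787 and 0.153. The RPS18 window began 22 nucleotides before the tract shown above and ran into it, and the RPS3A window began 33 nucleotides before its canonical start. The highest window lay in the 3′ UTR of RPSA (chr3:39412384-39412408, plus strand), with 0.102 and 0.569 and all 25 nucleotides higher. Within coding sequences the highest was in RPS13 (chr11:17074414-17074438, minus strand), close to the stop codon, with 0.0483 and 0.419. RPS6 held both a low window, with 0.504 and 0.234, and a high one further 3′ (chr9:19376501-19376525, minus strand), with 0.204 and 0.547.
RPS3A: UACGCCUAaGUucUCGCGCgACUCC
RPSA: gCUCUUaAGcAgCauGGAAAAAUGG
RPS13: GCAuaAaUuuGucuGUGUaCucaag
RPS6: AAUaugcuaAaCUUuugGCCAAgAG

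In these icLASER windows the icSHAPE difference was 0.0424 in RPS3A, 0.0363 in RPSA, 0.0108 in RPS13 and 0.00152 in the high window of RPS6. It was -0.0119 in the window of RPS18 and -0.125 in the low window of RPS6, which was thus lower in vivo by both reagents.

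By codon position the members followed the pattern of coding sequences at large, with position 1 the highest. This was so in 24 of 27 members for icSHAPE in vitro, in 26 for icSHAPE in vivo and in 19 for each icLASER profile, against 81.3%, 88.5%, 73.7% and 69.9% of the other coding genes. The median icSHAPE score in vivo was 0.207 at position 1, 0.137 at position 2 and 0.154 at position 3. At the nucleotide just before the AUG the members had mean icSHAPE scores of 0.535 and 0.493, and 0.556 and 0.618 in the other coding genes.

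By the median over the member mRNAs the conditions resembled each other more than the reagents did. Some members differed. Between icSHAPE conditions r was 0.278 in RPS14 and 0.447 in RPS4X, below their 0.431 and 0.472 between reagents in vitro. RPS18 had 0.376 between icLASER conditions and 0.481 between reagents in vitro. The median Pearson r across nucleotides was 0.725 between icSHAPE in vivo and in vitro and 0.679 for icLASER, against 0.476 and 0.525 in the other coding genes. Between icSHAPE and icLASER it was 0.455 in vivo and 0.481 in vitro, against 0.316 and 0.345. Nucleotides of a transcript share libraries, depth and base composition. In the group of like length and level the medians were 0.694, 0.779, 0.465 and 0.489, so 3 of the 4 comparisons changed sign. RPS29 had the highest icSHAPE r at 0.898 and RPS14 the lowest at 0.278, and for icLASER RPS19 had 0.917 and RPS28 0.364.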

How the data were processed

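K562 icSHAPE and icLASER libraries were analysed from 4 deposited profiles. Per the submitters' processing notes and the study's methods, the authors trimmed reads (Trimmomatic) and aligned them (Bowtie2) to the GRCh38 transcriptome of Ensembl release 88. Versions are not given in the sources used here. The authors' icSHAPE pipeline then gave each transcript a deposited RPKM, with none below 5, and a deposited score per nucleotide, the enrichment over the pooled controls scaled to 0 to 1. Replicates were pooled by the authors. Their filters on hit coverage and background density were switched off, so scores can rest on few reads. In 3 transcripts outside the set, 16 values beyond 0 to 1 were set to missing.

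Regions and sequences came from GENCODE 44 (GRCh38). Where a transcript's length differed from that annotation, its place was found by matching scores to the mean score of each 5-mer. Of length-matched transcripts placed in this way 99.2% (1136 of 1145) fell on their own start. This gave 16 of the 27 members, and 11 were placed by length. In all, 2682 of 2731 such transcripts could be placed, and 35 were left out for a lost exon. A region needed at least 20 nucleotides scored in both profiles of a reagent, 15 at the 5′ end, and a correlation 100. A score difference of 0.05 and an RPKM ratio of 2 were called. With pooled profiles no test was run, and genes and nucleotides were not treated as replicates. Named genes were the members of highest and lowest RPKM, the 3 lowest and 3 highest per region and reagent, and the extreme 25-nucleotide windows. The coding sequence windows, the stop codon window, the comparison group of like length and level, the count from the canonical start and other members that are named were added after values were seen. The members and lists were chosen with earlier results of these data known. Python 3.11.15, numpy 2.4.6, scipy 1.17.1 and matplotlib 3.10.9 were used, and the scripts were tested on simulated data. Alternatives changed the pseudocount, thresholds, scaling, minimum nucleotides, transcript choice and comparison group.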

Additional observations from a re-analysis of the deposited data

How the results depend on the processing

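Of 358 values recomputed for 78 results, 294 moved by less than 1 SD across the members, or for a count by no more than 1.5 times, and 64 moved more. In all 27 changed sign, 17 of them by less than 1 SD. The cause was not tested. The counts below are of members, with no share of the other coding genes under the same setting.

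Against other coding genes with mean RPKM of at least 20 the median percentile of the members was 95.7, 95.2, 95.1 and 94.5. A ratio of 1.5 called 1 member lower by icSHAPE (RPS14) and 18 higher by icLASER, and a ratio of 3 called 0 higher. Division by the median RPKM called 1 lower by icSHAPE and 1 higher by icLASER.

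With the median over nucleotides, members minus other coding genes changed sign for the icSHAPE in vitro 3′ UTR (0.006) and coding sequence (0.042) and for the icLASER in vitro coding sequence (0.001), and moved to 0.057 for the icLASER in vivo coding sequence. That median called, for icSHAPE, 1 higher and 2 lower in the 5′ UTR, 0 higher in the coding sequence and 1 higher in the 3′ UTR, and for icLASER 4 lower in the 5′ UTR and 1 higher in the coding sequence.

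With the trinucleotide mean taken out, icSHAPE called 10 lower in the 5′ UTR, 0 higher and 5 lower in the coding sequence (median -0.0220, a change of sign), and 3 higher and 1 lower in the 3′ UTR. With each profile divided by its mean score it called 15 lower in the 5′ UTR and 0 higher and 4 lower in the coding sequence (median -0.0220, likewise).

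A call at 0.03 gave 5 higher in the icSHAPE 5′ UTR, 4 lower in the icSHAPE coding sequence and 14 higher in the icLASER coding sequence. A call at 0.10 gave 0 higher and 3 lower in the icSHAPE 5′ UTR, 0 higher in its coding sequence, 2 higher in its 3′ UTR and 1 higher in the icLASER coding sequence. At least 50 nucleotides left 1 lower in the icSHAPE 5′ UTR, 2 higher in its 3′ UTR and 5 higher in the icLASER 3′ UTR. The mean over all coding transcripts gave 0 higher in the icSHAPE coding sequence, 5 higher in its 3′ UTR and 1 higher in the icLASER 5′ UTR.

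At the 5′ end, only members starting with C and at least 4 pyrimidines gave 2 higher and 2 lower by icSHAPE and 5 lower by icLASER. Nucleotides 7 to 20 gave 1 higher and 7 to 50 gave 2 higher by icLASER.

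The next alternatives were chosen after seeing the data. Transcripts of equal length alone, at most 11 members, gave 0 lower in the icSHAPE 5′ UTR, 1 higher in its coding sequence and 5 higher in its 3′ UTR. For icLASER they gave 3 lower, 4 higher and 5 higher in the 5′ UTR, coding sequence and 3′ UTR. Counted from the canonical start, the 5′ UTR had 1 lower by icSHAPE and 3 higher and 6 lower by icLASER. Against genes of like length and level the members' icLASER RPKM ratio was 1.17 times theirs, and members minus that group was 0.0311 for r between icSHAPE conditions, and of opposite sign for the icLASER in vivo coding sequence score (-0.0260) and for r between icLASER conditions (-0.0996) and between reagents in vivo (-0.0102) and in vitro (-0.00804). Against all genes of RPKM at least that of the lowest member that score also changed sign (-0.0231).

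No paired analysis was possible because the profiles pool the replicates, and for the same reason no library was left out. With depth unknown, no interval is given, and a score in a short UTR rests on few nucleotides.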

Other observations

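The pseudogene transcripts differed widely in level relative to their members. RPS27AP16 had a mean RPKM of 600, or 154% of RPS27A, and RPS28P7 had 542, or 93.2% of RPS28. RPS23P8 reached 67.1% and RPS7P1 64.1% of their members. At the low end RPS21P4 stood at 1.84% of RPS21, RPS25P9 at 1.58% of RPS25 and RPS16P9 at 2.24% of RPS16, and no pseudogene of RPS9 was listed. RPSA had the most, with 39 pseudogenes. These genes were chosen after their values were seen.

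Positions reactive with both reagents, at a score of at least 0.5, made up 4.06% of 19033 member nucleotides in vitro and 3.91% of 19062 in vivo. This was 3.97 and 3.23 times the product of the 2 single shares, against 2.89 and 2.55 times in the other coding genes. Among the comparison lists the 60S genes RPL41 and RPLP1 had icLASER coding sequence differences of 0.116 and 0.110, the TOP mRNAs EEF1A1 and EEF2, elongation factors, 0.0719 and 0.00343, and the glycolytic ENO1 and GAPDH 0.00839 and -0.0358. In its 3′ UTR EEF1A1 had an icSHAPE difference of -0.0578, below the 19 members measured.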
